A study of Mus musculus with 12 samples.

Results

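Osteoblasts of the MC3T3-E1 subclone 14 line were compared on titanium with nanotopography and on control titanium while osteoclasts shared their medium. The comparison uses 6 of the 12 libraries of the series, 3 from each surface, chosen by their labels. All genes whose counts were complete in all 12 libraries and that passed a filter on low counts were examined, 13340 of 52654. In both groups the osteoblasts had grown on titanium discs for 7 days in osteogenic medium, which held ascorbic acid at 5 µg/mL and β-glycerophosphate at 7 mM. RAW 264.7 cells, a mouse macrophage line driven to osteoclasts with 50 ng/mL RANKL, were placed above them for the final 2 days, after 5 days apart, in an insert of 0.4 µm pore size. The RANKL, the insert and the osteoclasts are therefore shared by both groups, and only the titanium surface is labelled as different. The co-culture nanotopography group is called nanotopography below and the co-culture control group control. The other 6 libraries, osteoblasts kept on the same surfaces without osteoclasts, called isolated here, are used only to ask whether the surface difference was the same there. MC3T3-E1 subclone 14 is 1 clone of a mouse calvaria preosteoblast line, and the labels call the 3 libraries of a group biological triplicates.

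Osteoblasts lay down a matrix made mostly of type I collagen and then mineralise it with the help of alkaline phosphatase and other phosphate-releasing enzymes. Runx2 and Sp7 (osterix) drive their differentiation, with input from Wnt and BMP signals. Titanium is the usual material of bone implants, and texture on the nanometre scale alters the contacts that osteoblasts make with it through integrins, focal adhesions and the actin skeleton. Osteoblasts also steer osteoclasts, the macrophage-derived cells that resorb bone, through secreted factors such as RANKL and its decoy receptor osteoprotegerin.

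On nanotopography, type I collagen, alkaline phosphatase and many respiratory chain and ribosomal protein genes had lower counts than on control titanium, while Mmp13, Spp1, Mki67 and a set of macrophage genes had higher counts. Of 13340 genes, 5599 (42.0%) were called, meaning an adjusted p (edgeR quasi-likelihood test, Benjamini-Hochberg) below 0.05: 2486 higher (18.6%) and 3113 lower (23.3%). By at least 2-fold, 459 were higher (3.44%) and 809 lower (6.06%). The 3 and 3 libraries did not overlap in 7117 genes (53.4%). These differences were ordered by the base composition of the genes: AT-rich genes were mostly higher and GC-rich genes mostly lower on nanotopography. Each result is therefore also given with the trend of each library with GC content and length removed, called GC-adjusted, which left 2302 calls (17.3%), 974 higher (7.30%) and 1328 lower (9.96%), of which 178 (1.33%) and 142 (1.06%) by at least 2-fold. Among the single genes that open this paragraph, Col1a2 of type I collagen, Mmp13 and Mki67 were called in both fits. Col1a1 of type I collagen, Alpl (alkaline phosphatase) and Spp1 were called only without the adjustment. In bulk RNA, fewer cells of a type and less RNA per cell cannot be told apart.

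The sequencing depth was alike in both groups. Total counts were 7443016, 7565815 and 6392210 in the nanotopography libraries, against 9207831, 7139534 and 6773131 in the control libraries. The 2 mitochondrial ribosomal RNAs together held 15.8%, 8.66% and 10.2% in the nanotopography libraries, against 6.73%, 6.59% and 6.15% in the control libraries. Both groups lay apart, by 5.07 percentage points between means, and by 2.96 points without nanotopography replicate 1. Gm26917 and Gm42418, predicted genes at which ribosomal RNA reads often align, held 0.756%, 0.8% and 0.35% in the nanotopography libraries, against 1.52%, 1.91% and 2.08% in the control libraries. Genes with at least 1 count numbered 19192, 19313 and 19167 in the nanotopography libraries, against 18922, 18431 and 18679 in the control libraries. An exact two-sided permutation test gave p = 0.1 for each of these 3 measures, the smallest that 3 against 3 libraries can give. A fit without mitochondrial genes, Gm26917 and Gm42418 called 5645 genes, 2643 higher and 3002 lower. Beyond that fit, whether library composition has a part in the gene differences below was not tested. Markers of the labelled cell type were present: Col1a1 and Col1a2 alone held 3.43%, 4.4% and 4.59% in the nanotopography libraries, against 6.42%, 6.72% and 7.56% in the control libraries, and all 13 osteoblast markers had counts in each library. Library composition and the surface cannot be told apart here, since the groups differ in both.

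The GC content of a gene, taken over the union of its exons, ranged from 28.3% to 73.7% among the tested genes, with a median of 48.7%. Coding stretches of 6 genes show the range that the trend spans. They are the 3 called protein-coding genes of lowest and the 3 of highest GC content with a mean of at least 20 CPM (read counts scaled to a common library total) and no overlap between groups. Each stretch of 120 bases lies in 1 coding exon and is the one nearest to the gene's own coding GC content, read from GENCODE M21 transcripts (mm10). They are mt-Nd6 (chrM:13931-14050, minus strand), Arhgap5 (chr12:52516277-52516396, plus strand), Rnpc3 (chr3:113609041-113609160, minus strand), Samd1 (chr8:83997715-83997834, plus strand), Agap3 (chr5:24452369-24452488, plus strand) and Wnt10a (chr1:74793401-74793520, plus strand). Capitals mark G and C.
mt-Nd6: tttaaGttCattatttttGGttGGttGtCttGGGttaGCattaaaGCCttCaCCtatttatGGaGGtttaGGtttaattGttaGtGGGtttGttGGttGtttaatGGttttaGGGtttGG
Arhgap5: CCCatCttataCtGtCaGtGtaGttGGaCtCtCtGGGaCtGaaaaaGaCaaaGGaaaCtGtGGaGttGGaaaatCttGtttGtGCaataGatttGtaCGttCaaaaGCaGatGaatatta
Rnpc3: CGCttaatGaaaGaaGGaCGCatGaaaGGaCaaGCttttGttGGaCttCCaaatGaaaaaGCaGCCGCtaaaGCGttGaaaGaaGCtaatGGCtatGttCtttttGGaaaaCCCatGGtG
Samd1: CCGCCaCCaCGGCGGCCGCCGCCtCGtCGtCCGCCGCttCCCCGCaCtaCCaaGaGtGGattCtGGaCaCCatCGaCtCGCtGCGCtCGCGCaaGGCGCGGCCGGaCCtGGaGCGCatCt
Agap3: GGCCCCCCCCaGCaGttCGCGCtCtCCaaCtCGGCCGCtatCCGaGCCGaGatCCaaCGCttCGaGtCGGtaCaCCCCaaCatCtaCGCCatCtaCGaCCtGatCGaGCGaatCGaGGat
Wnt10a: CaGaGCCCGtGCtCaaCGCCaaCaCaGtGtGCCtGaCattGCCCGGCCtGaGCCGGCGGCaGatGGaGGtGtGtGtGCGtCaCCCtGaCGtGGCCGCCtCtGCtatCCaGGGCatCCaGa
The stretches hold 34.2%, 37.5%, 41.7%, 71.7%, 61.7% and 65.0% G and C in that order, and the exons of the same genes 34.1%, 34.2%, 34.3%, 65.7%, 64.3% and 63.8%.

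The AT-rich genes of this set were higher on nanotopography and the GC-rich ones lower. They were picked by GC content among called genes, nearly all of which follow the trend at these extremes. They illustrate the trend and are no separate support for it. mt-Nd6, a mitochondrially encoded subunit of complex I, had 498, 209 and 355 CPM in the nanotopography libraries, against 122, 91.3 and 153 CPM in the control libraries. Arhgap5, a GTPase-activating protein, had 160, 111 and 99.3 CPM in the nanotopography libraries, against 79.6, 76.6 and 74.6 CPM in the control libraries. Rnpc3, a protein of the minor spliceosome, had 44.2, 26 and 26.1 CPM in the nanotopography libraries, against 23.5, 17.7 and 20 CPM in the control libraries. In all 3 genes the nanotopography libraries lay above the control libraries, with replicate 1 the highest. Samd1, a protein that binds unmethylated CpG islands, had 15.7, 21.6 and 20 CPM in the nanotopography libraries, against 27, 29.1 and 31.9 CPM in the control libraries. Agap3, an Arf GTPase-activating protein, had 23.1, 24.4 and 31.7 CPM in the nanotopography libraries, against 47, 45 and 46 CPM in the control libraries. Wnt10a, a Wnt ligand, had 18.5, 25.3 and 19.3 CPM in the nanotopography libraries, against 32.7, 46.6 and 52.5 CPM in the control libraries. In these 3 genes the nanotopography libraries lay below the control libraries, with replicate 1 the lowest. The log2 fold changes were 1.54, 0.68 and 0.65 for the AT-rich and -0.61, -0.81 and -1.05 for the GC-rich genes. GC-adjusted they were 0.56, -0.29, -0.29, 0.51, 0.25 and 0.01. Of these, only Samd1 was still called (adjusted p = 0.00644), and in the opposite direction. With 1 library left out, the unadjusted calls were lost for Arhgap5 without nanotopography replicate 1 (0.45, adjusted p = 0.0902) and Rnpc3 without nanotopography replicate 1 or control replicates 2 and 3 (0.35 and adjusted p = 0.174 without nanotopography replicate 1). The GC-adjusted calls were gained for mt-Nd6 without nanotopography replicate 2 or control replicate 3 (0.73 and adjusted p = 0.0138 without nanotopography replicate 2), Arhgap5 without nanotopography replicate 2 (-0.37, adjusted p = 0.0287) and Agap3 without nanotopography replicate 2 (0.36, adjusted p = 0.0496).

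Across all tested genes the same order held from class to class of GC content. The 992 genes under 40% GC stood at a median of 0.69 on the log2 scale, with 661 called higher and 2 lower. The 393 genes of 60% GC or more stood at -0.93, with 3 called higher and 272 lower. Between them the median fell in each of 10 classes 2 percentage points wide, and it crossed 0 between 46 and 50% GC. Spearman's rank correlation between GC content and log2 fold change was -0.76 over 13340 genes, a description only, since genes share libraries and are not independent. After the GC adjustment the rank correlation was -0.04, by construction of the adjustment. The difference between the low and the high class was 1.62 on the log2 scale, and it ran from 1.34 without nanotopography replicate 1 to 1.82 without nanotopography replicate 2.

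Each nanotopography library carried the trend. Within a library, the median log2 CPM of the low class minus that of the high class, each gene taken relative to its mean in the 3 control libraries, was 2.12, 1.21 and 1.35 in the nanotopography libraries, against 0.28, -0.08 and -0.21 in the control libraries. Replicate 1 of each surface had the highest value of its group, and the groups did not overlap. In isolated cells the nanotopography values had the other sign, -1.14, -0.38 and -1.08 on nanotopography, against 0.26, 0.02 and -0.33 on control titanium, on the same scale. Count-weighted GC content, the mean GC of the genes weighted by their counts, was 45.2%, 46.9% and 46.4% in the nanotopography libraries, against 48.1%, 48.5% and 48.7% in the control libraries. It averaged 46.2 ± 0.88% on nanotopography and 48.4 ± 0.344% on control titanium (SD, n = 3 each; exact permutation p = 0.1, the smallest possible).

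**Figure D1:**
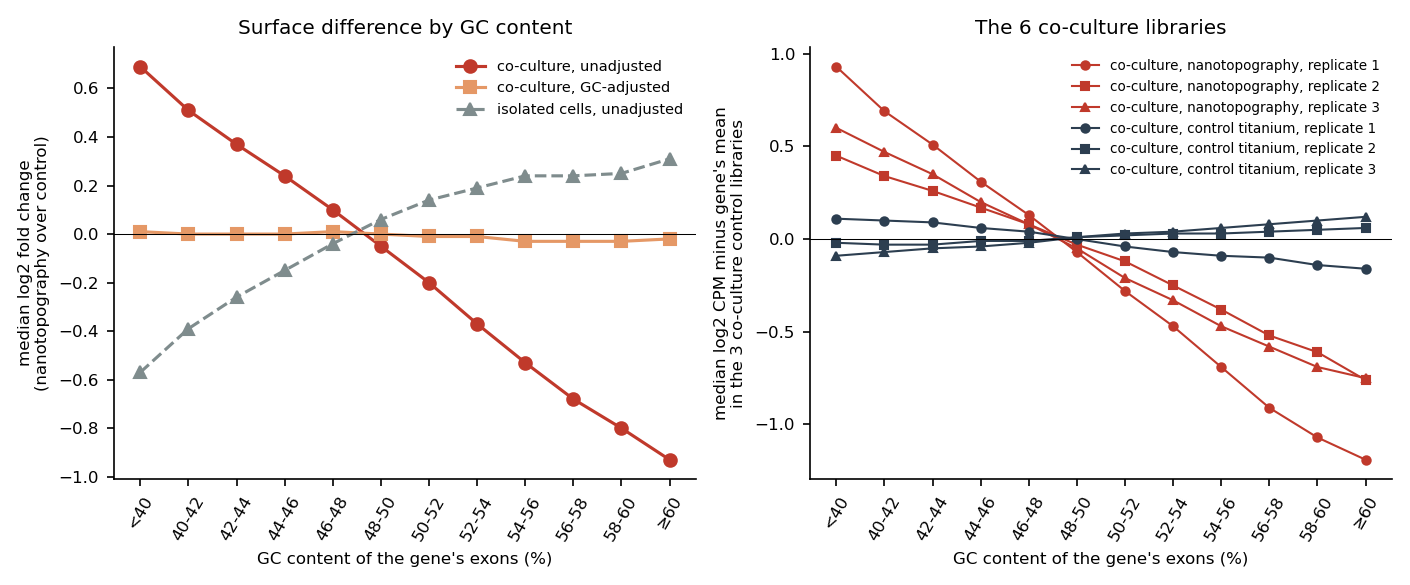
Left, median log2 fold change of nanotopography over control titanium (y) in 12 classes of exon GC content (x) for co-culture before and after the GC adjustment and for isolated cells. Right, median log2 CPM relative to each gene's mean in the 3 co-culture control libraries (y) in the same classes, 1 line per co-culture library. The co-culture line falls from 0.69 to -0.93 and the isolated line climbs from -0.57 to 0.31, while the GC-adjusted line stays near 0.

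Genes of middle GC content are least touched by the trend. Among the 2852 genes of 47 to 51% GC, 531 were called (18.6%), 184 higher and 347 lower, with a median log2 fold change of -0.05. Both fits called 1463 genes in the same direction (11.0%), 530 higher (3.97%) and 933 lower (6.99%). These were 26.1% of the unadjusted and 63.6% of the GC-adjusted calls, while 4075 genes were called only without and 778 only with the adjustment. Another 61 genes (0.457%) were called in opposite directions.

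Of the 61 genes, 42 with 55.6 to 66.4% GC were lower before and higher after the adjustment, and 19 with 36.1 to 40.6% GC were higher before and lower after it. Their log2 fold changes stayed within 0.66 of 0 in both fits. Dact3, an inhibitor of Wnt signalling, was at -0.49 before and 0.66 after the adjustment. Ppp1r9b, which encodes the actin-binding spinophilin, was at -0.35 and 0.58. Kdm6b, a demethylase of histone H3 lysine 27, was at -0.28 and 0.50, and the tendon transcription factor Scx at -0.44 and 0.47. In the other direction, the centrosomal protein gene Cep170 was at 0.43 and -0.34, the calcium-dependent kinase gene Camk2d at 0.31 and -0.35, N4bp2l2 at 0.37 and -0.40, Mkln1 at 0.31 and -0.35, and Zmym2 at 0.34 and -0.34. With Samd1, these are the 5 with the highest and the 5 with the lowest GC-adjusted values at a mean of at least 5 CPM. The direction of these genes depended on whether the trend was removed. Leaving out 1 library ended, of the 10 unadjusted calls, 8 without nanotopography replicate 1, 2 without nanotopography replicate 2, 3 without nanotopography replicate 3, 3 without control replicate 1, 8 without control replicate 2 and 7 without control replicate 3. Of the 10 GC-adjusted calls it ended 7 without nanotopography replicate 1, 1 without nanotopography replicate 2, 4 without nanotopography replicate 3, 1 without control replicate 1, 7 without control replicate 2 and 3 without control replicate 3. The value of Kdm6b without nanotopography replicate 1 was -0.20 (adjusted p = 0.191), and the GC-adjusted value of Dact3 without it was 0.43 (adjusted p = 0.232).

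**Figure D2:**
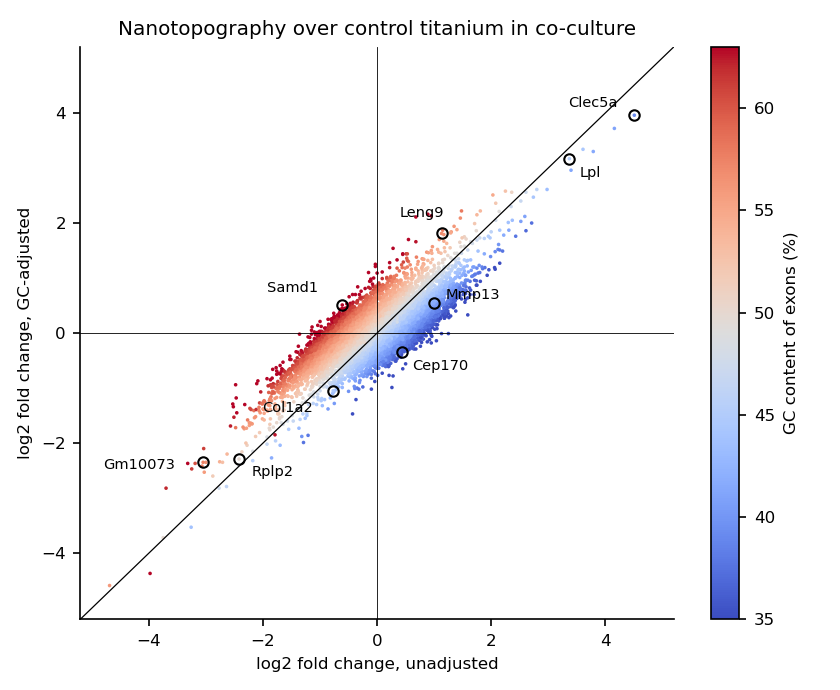
Each point is 1 of 13340 tested genes, placed by its log2 fold change before (x) and after (y) the GC adjustment and coloured by exon GC content. GC-rich genes lie mostly above the diagonal and AT-rich genes mostly below it, and of the genes far from 0 on both axes Rplp2, at -2.42 and -2.29, lies near it and Scand1, at -2.53 and -1.29, away from it.

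Genes called in the same direction by both fits are those whose call does not depend on the adjustment. The 10 lowest protein-coding genes with a mean of at least 5 CPM, ranked by the smaller of both changes, are given first. Rplp0, the ribosomal stalk protein, had 211, 346 and 334 CPM in the nanotopography libraries, against 1233, 1464 and 1507 CPM in the control libraries (log2 fold change -2.24 ± 0.17, adjusted p = 8.99e-07; -1.68 ± 0.11 GC-adjusted, adjusted p = 7.17e-09). Rplp2, another stalk protein, had 15.1, 22.2 and 21.6 CPM in the nanotopography libraries, against 84.5, 113 and 119 CPM in the control libraries (log2 fold change -2.42 ± 0.17, adjusted p = 5.97e-07; -2.29 ± 0.14 GC-adjusted, adjusted p = 7.17e-09). Both were lower in each nanotopography library than in any control library. Gm10073, a predicted gene, was the lowest of the 10, with 26.3, 38 and 44.9 CPM in the nanotopography libraries, against 250, 374 and 278 CPM in the control libraries (log2 fold change -3.05 ± 0.21, adjusted p = 4.59e-07; -2.35 ± 0.15 GC-adjusted, adjusted p = 7.17e-09). Uqcrq, a subunit of respiratory complex III, had 4.11, 7.62 and 6.22 CPM in the nanotopography libraries, against 19.3, 26.8 and 20.9 CPM in the control libraries (log2 fold change -1.88 ± 0.20, adjusted p = 1.51e-05; -1.76 ± 0.17 GC-adjusted, adjusted p = 1.84e-06). Sf3b5, a subunit of the SF3b splicing complex, had 5.52, 5.84 and 4.86 CPM in the nanotopography libraries, against 18.7, 17.7 and 19.7 CPM in the control libraries (log2 fold change -1.78 ± 0.15, adjusted p = 2.11e-06; -1.96 ± 0.16 GC-adjusted, adjusted p = 1.63e-07). Oaz1, the antizyme that limits polyamine synthesis, had 6.51, 8.25 and 5.77 CPM in the nanotopography libraries, against 24.3, 43.5 and 36.8 CPM in the control libraries (log2 fold change -2.33 ± 0.23, adjusted p = 1.04e-05; -1.74 ± 0.18 GC-adjusted, adjusted p = 5.29e-06). The remaining 4 were Rps26, Rps7, Hist2h2ac and Hist1h4d, at -2.18, -1.82, -3.04 and -1.93 unadjusted and -2.15, -1.71, -2.10 and -1.89 GC-adjusted. Ribosomal protein and histone genes have near-identical copies, so the counts of single members are uncertain.

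The 10 highest by the same rule included Lpl, which passed the low-count filter only through the nanotopography libraries. Being tested depended on being higher there, so Lpl is given without a fitted change or its test. Lpl, the lipoprotein lipase of macrophages and fat cells, had 7.93, 18.4 and 20.8 CPM in the nanotopography libraries, against 0.539, 1.26 and 3.01 CPM in the control libraries. It had 5 counts in the 6 isolated libraries together. Hmga2, a chromatin protein of proliferating mesenchymal cells, had 9.91, 11.3 and 14.7 CPM in the nanotopography libraries, against 4.42, 4.18 and 4.51 CPM in the control libraries (log2 fold change 1.45 ± 0.20, adjusted p = 7.37e-05; 1.01 ± 0.21 GC-adjusted, adjusted p = 0.00305). Prkg2, a cGMP-dependent kinase that acts in growing cartilage and bone, had 16.6, 14 and 13.5 CPM in the nanotopography libraries, against 6.69, 6.14 and 7.52 CPM in the control libraries (log2 fold change 1.12 ± 0.24, adjusted p = 0.00215; 0.97 ± 0.21 GC-adjusted, adjusted p = 0.0048). In all 3 genes each nanotopography library exceeded each control library. The protocadherin genes Pcdhgb5 and Pcdhgb1 were at 1.29 and 0.97 unadjusted and 1.37 and 1.34 GC-adjusted, but genes of this cluster share exons and their single values are uncertain. Hoxc8, a homeobox gene of the trunk, was at 1.08 and 1.16, with overlapping groups. The others were Leng9 (1.13 and 1.81), Armcx4 (1.01 and 1.18), Ccdc191 (1.14 and 1.10) and 1700109H08Rik (1.47 and 1.15). When 1 library was omitted, the unadjusted calls were lost for Hoxc8 without nanotopography replicates 1 and 3 or control replicate 2 (0.79 and adjusted p = 0.119 without nanotopography replicate 1) and Pcdhgb1 without nanotopography replicate 3 or control replicate 3 (0.69 and adjusted p = 0.121 without nanotopography replicate 3). GC-adjusted calls were lost for Pcdhgb5 without nanotopography replicates 1 and 3 (1.22 and adjusted p = 0.0536 without nanotopography replicate 3), Hoxc8 without nanotopography replicates 1 and 3 or control replicate 2 (0.85 and adjusted p = 0.154 without nanotopography replicate 1) and Pcdhgb1 without nanotopography replicate 3 (1.07, adjusted p = 0.0537).

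The described lists of genes were each counted in both fits, and their counts are read against the shares of all tested genes given above. Counts of 3 or fewer moved by at most 3 genes when 1 library was left out. Larger counts are given without a library where that moved them by over 1.5 times. Members in brackets after a count of 5 or fewer were picked after their values were seen where the naming rule does not hold them. So were Mgp, Enpp1, Wnt5a, Atp5k, Ndufa5, Rpl22l1, Plk1 and Cdc20.

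**Figure D3:**
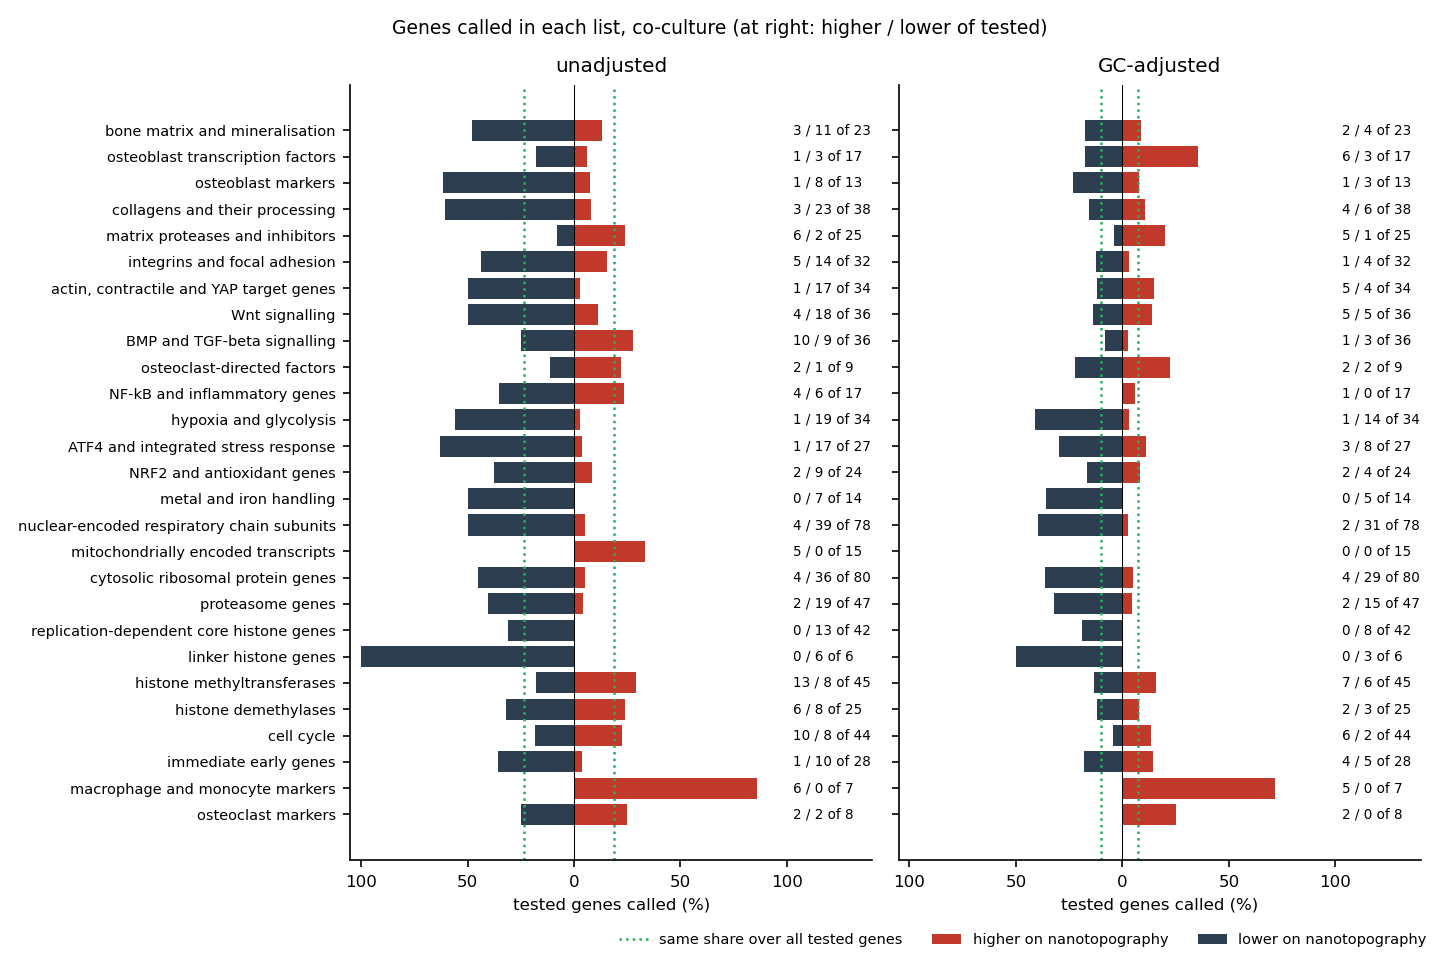
Share of tested genes called higher (right of 0) and lower (left of 0) on nanotopography in 27 gene lists (rows), before (left panel) and after (right panel) the GC adjustment, with the counts beside each row. Dotted lines mark the shares over all 13340 tested genes, 18.6% higher and 23.3% lower before and 7.30% higher and 9.96% lower after the adjustment.

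Of the genes of bone matrix and mineral, 11 were lower on nanotopography before the adjustment, and fewer were called after it. Of 23 tested genes from a list of 26, 3 were called higher (Enpp1, Spp1 and Postn) and 11 lower, with a median log2 fold change of -0.35. GC-adjusted, 2 were called higher (Ank and Tnn) and 4 lower (Phex, Ifitm5, Mgp and Bmp1), with a median of -0.15. Ifitm5, a membrane protein of mineralising osteoblasts, had 4.95, 5.97 and 8.04 CPM in the nanotopography libraries, against 17.5, 29.3 and 29.5 CPM in the control libraries (log2 fold change -2.0 ± 0.23, adjusted p = 2.24e-05; -1.38 ± 0.18 GC-adjusted, adjusted p = 4.56e-05). Bmp1, the protease that trims procollagen, had 53.8, 70.8 and 72.6 CPM in the nanotopography libraries, against 121, 136 and 140 CPM in the control libraries (log2 fold change -1.01 ± 0.12, adjusted p = 3.34e-05; -0.55 ± 0.08 GC-adjusted, adjusted p = 1.67e-04). Each of them was lower in every nanotopography library and called in both fits. Phospho1, a phosphatase that releases phosphate inside matrix vesicles, had 30.3, 42.5 and 34.6 CPM in the nanotopography libraries, against 59.6, 85.6 and 90.7 CPM in the control libraries (log2 fold change -1.13 ± 0.15, adjusted p = 5.93e-05; -0.21 ± 0.11 GC-adjusted, adjusted p = 0.2). Smpd3, a sphingomyelinase needed for mineralisation, had 253, 281 and 299 CPM in the nanotopography libraries, against 441, 484 and 519 CPM in the control libraries (log2 fold change -0.79 ± 0.10, adjusted p = 4.79e-05; -0.20 ± 0.09 GC-adjusted, adjusted p = 0.113). Alpl, tissue-nonspecific alkaline phosphatase, had 74.7, 94.4 and 86.5 CPM in the nanotopography libraries, against 138, 165 and 155 CPM in the control libraries (log2 fold change -0.84 ± 0.13, adjusted p = 2.47e-04; -0.15 ± 0.08 GC-adjusted, adjusted p = 0.229). These 3 lay apart between the groups, but their GC-adjusted values did not pass the test. The osteocalcin genes Bglap and Bglap2, which are near-identical copies, were at -0.82 and -0.59 and GC-adjusted at -0.21 and 0.03. Both were called lower unadjusted and neither GC-adjusted. In fits without 1 library, Bglap was at -0.54 without control replicate 3 (adjusted p = 0.0111).

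Some mineral genes went the other way or overlapped. Spp1, osteopontin, had 454, 401 and 503 CPM in the nanotopography libraries, against 360, 315 and 328 CPM in the control libraries (log2 fold change 0.44 ± 0.12, adjusted p = 0.00908; 0.16 ± 0.09 GC-adjusted, adjusted p = 0.253). Its groups did not overlap, and the GC-adjusted value did not pass. Ibsp, bone sialoprotein and among the most abundant transcripts here, had 9475, 7814 and 8806 CPM in the nanotopography libraries, against 8324, 7721 and 8983 CPM in the control libraries (log2 fold change 0.06 ± 0.15, adjusted p = 0.766). Dmp1, a protein of osteocytes, had 7.64, 12.1 and 12.9 CPM in the nanotopography libraries, against 7.23, 5.86 and 13.1 CPM in the control libraries (log2 fold change 0.34 ± 0.28, adjusted p = 0.35). Neither Ibsp nor Dmp1 passed in either fit, and their groups overlapped. Phex, an endopeptidase of phosphate balance, was called only GC-adjusted (-0.11 unadjusted; -0.67 ± 0.17 GC-adjusted, adjusted p = 0.012). Enpp1, which makes the mineralisation inhibitor pyrophosphate, was higher before the adjustment (log2 fold change 1.41 ± 0.43, adjusted p = 0.0147; 1.03 ± 0.44 GC-adjusted, adjusted p = 0.11). Mgp, a matrix inhibitor of mineral, was lower in both fits (log2 fold change -0.58 ± 0.11, adjusted p = 0.00126; -0.49 ± 0.10 GC-adjusted, adjusted p = 0.00182). Among fits that omitted 1 library, the unadjusted calls were lost for Spp1 without nanotopography replicate 3 (0.35, adjusted p = 0.0526) and Enpp1 without nanotopography replicate 2 or control replicate 2 (1.15 and adjusted p = 0.0684 without nanotopography replicate 2). A GC-adjusted call was lost for Phex without nanotopography replicate 1 or control replicate 1 (-0.52 and adjusted p = 0.0756 without control replicate 1). Gains of a GC-adjusted call were seen for Dmp1 without control replicate 3 (0.88, adjusted p = 0.039).

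Collagens followed the same pattern, with type I collagen the largest in counts. Of 38 tested genes from a list of 39, 3 were called higher (Col8a1, Col12a1 and Lox) and 23 lower, with a median log2 fold change of -0.40. In the GC-adjusted fit, 4 were called higher (Col5a3, Col12a1, Col16a1 and P4ha3) and 6 lower, with a median of -0.05. Col1a1, the gene of the α1 chain, had 20164, 23813 and 26165 CPM in the nanotopography libraries, against 35951, 37556 and 44177 CPM in the control libraries (log2 fold change -0.75 ± 0.12, adjusted p = 3.02e-04; -0.04 ± 0.10 GC-adjusted, adjusted p = 0.847). Col1a2, the gene of the α2 chain, had 16016, 18412 and 18386 CPM in the nanotopography libraries, against 27865, 29368 and 32799 CPM in the control libraries (log2 fold change -0.77 ± 0.11, adjusted p = 7.34e-05; -1.05 ± 0.11 GC-adjusted, adjusted p = 4.57e-06). The unadjusted changes of both chains were alike, and the groups did not overlap in either gene. Col1a1 has 57.7% GC and Col1a2 44.8%, so the adjustment brought Col1a1 near 0 and left Col1a2 called lower. Serpinh1, the collagen chaperone HSP47, had 695, 923 and 851 CPM in the nanotopography libraries, against 1397, 1653 and 1969 CPM in the control libraries (log2 fold change -1.02 ± 0.13, adjusted p = 5.12e-05; -0.40 ± 0.08 GC-adjusted, adjusted p = 0.00301). Col11a2, a fibrillar collagen chain of cartilage, was at -1.25 unadjusted and -0.29 GC-adjusted (adjusted p = 0.147), and the lysyl oxidase Loxl4 at -0.97 and -0.35 (adjusted p = 0.0506). On leaving out 1 library, the GC-adjusted higher count was 1 without control replicate 2 and 2 without nanotopography replicates 1 and 3. The GC-adjusted call was gained for Loxl4 without nanotopography replicate 1 or control replicate 3 (-0.46 and adjusted p = 0.0153 without control replicate 3).

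**Figure D4:**
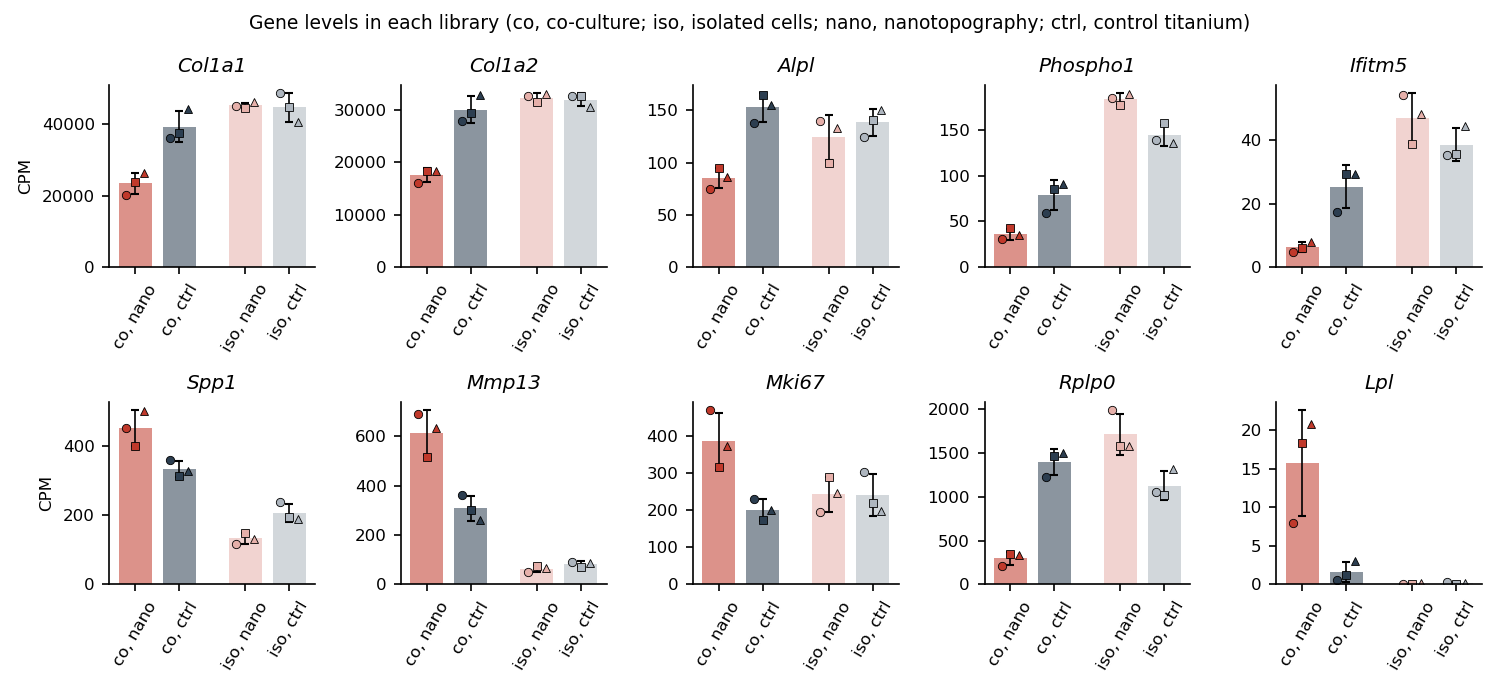
CPM (y, from 0) of 10 genes in the 4 groups (x), co-culture at left and isolated cells at right of each panel, nanotopography before control titanium. Bars are means, whiskers SD (n = 3) and symbols the libraries (circle, square and triangle for replicates 1, 2 and 3). In co-culture, Col1a1, Col1a2, Alpl, Phospho1, Ifitm5 and Rplp0 lie lower and Spp1, Mmp13, Mki67 and Lpl higher on nanotopography, each without overlap. CPM is not GC-adjusted.

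Few transcription factors of the osteoblast lineage were called before the adjustment. Of 17 tested genes from a list of 18, 1 was called higher (Cbfb) and 3 lower (Sp7, Dlx5 and Tcf7), with a median log2 fold change of -0.16. GC-adjusted, 6 were called higher and 3 lower (Dlx5, Mef2c and Tcf7), with a median of 0.17. Runx2, the factor that starts osteoblast differentiation, had 363, 295 and 362 CPM in the nanotopography libraries, against 275, 247 and 313 CPM in the control libraries (log2 fold change 0.29 ± 0.12, adjusted p = 0.0629; 0.43 ± 0.12 GC-adjusted, adjusted p = 0.0169). Its groups overlapped, and it was called only GC-adjusted. Sp7, osterix, had 282, 274 and 307 CPM in the nanotopography libraries, against 334, 351 and 408 CPM in the control libraries (log2 fold change -0.34 ± 0.10, adjusted p = 0.0149; 0.20 ± 0.09 GC-adjusted, adjusted p = 0.127). Sp7 was called lower only unadjusted, and the sign of its value turned with the adjustment. Dlx5, a homeobox activator of osteoblast genes, had 24.5, 32.9 and 34.5 CPM in the nanotopography libraries, against 48.9, 52.6 and 66 CPM in the control libraries (log2 fold change -0.86 ± 0.14, adjusted p = 2.83e-04; -0.33 ± 0.10 GC-adjusted, adjusted p = 0.0346). Tcf7, a nuclear partner of β-catenin, had 131, 153 and 142 CPM in the nanotopography libraries, against 221, 211 and 235 CPM in the control libraries (log2 fold change -0.64 ± 0.10, adjusted p = 1.34e-04; -0.28 ± 0.08 GC-adjusted, adjusted p = 0.0186). Dlx5 and Tcf7 were lower in both fits. With 1 library left out, the GC-adjusted higher count was 1 without nanotopography replicate 1 or control replicate 2 and 2 without nanotopography replicate 3. The unadjusted call was lost for Sp7 without control replicate 3 (-0.26, adjusted p = 0.0745). An unadjusted call was gained for Runx2 without nanotopography replicate 2 or control replicate 3 (0.37 and adjusted p = 0.0248 without nanotopography replicate 2). Losses of a GC-adjusted call were seen for Runx2 without nanotopography replicates 1 and 3 or control replicate 2 (0.34 and adjusted p = 0.103 without nanotopography replicate 1), Tcf7 without nanotopography replicates 1 and 3 or control replicate 1 (-0.24 and adjusted p = 0.0652 without control replicate 1) and Dlx5 without nanotopography replicates 1 and 2 or control replicate 3 (-0.23 and adjusted p = 0.141 without control replicate 3). The GC-adjusted call was gained for Sp7 without nanotopography replicate 2 (0.29, adjusted p = 0.0271).

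As a separate check of the labelled cell type, 13 osteoblast markers were counted, of which Spp1 was called higher and 8 lower, with a median log2 fold change of -0.42. GC-adjusted, Runx2 was called higher, and Col1a2, Phex and Ifitm5 lower. Their median was -0.15. When 1 library was omitted, the unadjusted call was lost for Spp1 without nanotopography replicate 3 (0.35, adjusted p = 0.0526). The unadjusted call was gained for Runx2 without nanotopography replicate 2 or control replicate 3 (0.37 and adjusted p = 0.0248 without nanotopography replicate 2). A GC-adjusted call was lost for Runx2 without nanotopography replicates 1 and 3 or control replicate 2 (0.34 and adjusted p = 0.103 without nanotopography replicate 1) and Phex without nanotopography replicate 1 or control replicate 1 (-0.52 and adjusted p = 0.0756 without control replicate 1).

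Genes of Wnt signalling were more often called lower than higher before the adjustment and evenly split after it. Of 36 tested genes from a list of 47, 4 were called higher (Wnt5a, Lrp6, Apc and Gsk3b) and 18 lower, with a median log2 fold change of -0.41. In the GC-adjusted fit, 5 were called higher (Wnt5a, Wnt10b, Fzd1, Fzd7 and Axin1) and 5 lower (Fzd8, Lrp5, Axin2, Dvl1 and Wif1), with a median of 0.01. Axin2, a direct target and feedback inhibitor of the pathway, had 8.07, 8.25 and 9.41 CPM in the nanotopography libraries, against 17.4, 19.4 and 17.7 CPM in the control libraries (log2 fold change -1.08 ± 0.14, adjusted p = 3.68e-05; -0.46 ± 0.13 GC-adjusted, adjusted p = 0.0203). The receptor gene Fzd8 had 16.8, 21.2 and 21.9 CPM in the nanotopography libraries, against 35.1, 41.6 and 45.6 CPM in the control libraries (log2 fold change -1.02 ± 0.15, adjusted p = 9.73e-05; -0.76 ± 0.11 GC-adjusted, adjusted p = 1.84e-04). Dvl1, which passes the signal on from the receptors, had 12.5, 19.4 and 18.1 CPM in the nanotopography libraries, against 37.7, 41.8 and 37.6 CPM in the control libraries (log2 fold change -1.23 ± 0.17, adjusted p = 8.10e-05; -0.42 ± 0.13 GC-adjusted, adjusted p = 0.0282). All 3 were lower in each nanotopography library and in both fits. The ligand Wnt5a was higher in both fits (log2 fold change 0.52 ± 0.15, adjusted p = 0.0101; 0.46 ± 0.14 GC-adjusted, adjusted p = 0.0286). In fits without 1 library, the GC-adjusted higher count was 2 without nanotopography replicate 1 or control replicate 2 and 3 without nanotopography replicate 3, and the GC-adjusted lower count was 3 without control replicates 1 and 2. Losses of an unadjusted call were seen for Wnt5a without control replicate 2 (0.45, adjusted p = 0.0524). The GC-adjusted calls were lost for Axin2 without nanotopography replicate 2 or control replicates 1 and 2 (-0.36 and adjusted p = 0.0924 without nanotopography replicate 2), Dvl1 without nanotopography replicates 1 and 3 or control replicates 1 and 2 (-0.38 and adjusted p = 0.112 without nanotopography replicate 1) and Wnt5a without nanotopography replicates 1 and 3 or control replicates 1 and 2 (0.39 and adjusted p = 0.114 without control replicate 2).

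In the BMP and TGF-β list the calls were evenly split before the adjustment and few after it. Of 36 tested genes from a list of 44, 10 were called higher and 9 lower, with a median log2 fold change of 0.02. With the trends removed, 1 was called higher and 3 lower (Smad1, Id3 and Chrd), with a median of 0.09. Id3, a target gene of BMP signals, had 6.94, 9.9 and 8.2 CPM in the nanotopography libraries, against 17.6, 22.2 and 30.1 CPM in the control libraries (log2 fold change -1.46 ± 0.20, adjusted p = 8.02e-05; -0.99 ± 0.17 GC-adjusted, adjusted p = 6.94e-04). Chrd, the BMP antagonist chordin, had 2.69, 2.41 and 2.58 CPM in the nanotopography libraries, against 5.5, 9.48 and 8.12 CPM in the control libraries (log2 fold change -1.57 ± 0.25, adjusted p = 2.35e-04; -0.98 ± 0.23 GC-adjusted, adjusted p = 0.00741). Both were lower in each nanotopography library and in both fits. Ltbp3, which holds latent TGF-β in the matrix, was at -0.97 unadjusted and -0.24 GC-adjusted (adjusted p = 0.13). Among fits that omitted 1 library, the higher count was 6 without nanotopography replicate 1 or control replicate 3.

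Mmp13 led the matrix proteases. Of 25 tested genes from a list of 34, 6 were called higher and 2 lower (Mmp2 and Timp1), with a median log2 fold change of -0.01. GC-adjusted, 5 were called higher (Mmp13, Mmp14, Timp2, Adamts4 and Adam17) and 1 lower (Timp1), with a median of 0.09. Mmp13, the collagenase of bone and cartilage, had 691, 514 and 634 CPM in the nanotopography libraries, against 361, 302 and 260 CPM in the control libraries (log2 fold change 0.99 ± 0.16, adjusted p = 2.20e-04; 0.54 ± 0.11 GC-adjusted, adjusted p = 0.00266). Adam17, a membrane protease that sheds cytokines and receptors, had 67.1, 58.5 and 66.9 CPM in the nanotopography libraries, against 44.1, 40.7 and 38.9 CPM in the control libraries (log2 fold change 0.63 ± 0.12, adjusted p = 0.00113; 0.39 ± 0.10 GC-adjusted, adjusted p = 0.0114). Timp1, an inhibitor of matrix metalloproteinases, had 53.7, 54.1 and 58.9 CPM in the nanotopography libraries, against 82.5, 90.5 and 89.7 CPM in the control libraries (log2 fold change -0.66 ± 0.10, adjusted p = 1.99e-04; -0.28 ± 0.08 GC-adjusted, adjusted p = 0.0267). Mmp13 and Adam17 were higher and Timp1 lower in each nanotopography library, and all 3 were called in both fits. On leaving out 1 library, the higher count was 3 without nanotopography replicate 3 or control replicates 2 and 3, and the GC-adjusted higher count was 3 without nanotopography replicate 3. GC-adjusted calls were lost for Timp1 without nanotopography replicate 2 or control replicates 1 and 2 (-0.21 and adjusted p = 0.108 without nanotopography replicate 2) and Adam17 without nanotopography replicate 3 (0.35, adjusted p = 0.0542).

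Factors that osteoblasts send to osteoclasts differed in single members. Of 9 tested genes from a list of 15, 2 were called higher (Sema3a and Fgf2) and 1 lower (Sema3b), with a median log2 fold change of -0.04. After the adjustment, 2 were called higher (Csf1 and Vegfa) and 2 lower (Tnfrsf11b and Sema3b), with a median of 0.22. Tnfsf11, the RANKL gene, did not pass the low-count filter. Tnfrsf11b, osteoprotegerin, had 220, 200 and 232 CPM in the nanotopography libraries, against 248, 231 and 206 CPM in the control libraries (log2 fold change -0.07 ± 0.11, adjusted p = 0.639; -0.44 ± 0.08 GC-adjusted, adjusted p = 0.00171). Its groups overlapped in CPM, and it was called lower only GC-adjusted. Sema3b, a secreted semaphorin, had 21.2, 20.1 and 19.9 CPM in the nanotopography libraries, against 49, 61.1 and 53.4 CPM in the control libraries (log2 fold change -1.42 ± 0.12, adjusted p = 2.11e-06; -0.75 ± 0.11 GC-adjusted, adjusted p = 2.17e-04). Sema3a, a semaphorin that restrains osteoclasts, had 432, 317 and 355 CPM in the nanotopography libraries, against 272, 228 and 198 CPM in the control libraries (log2 fold change 0.66 ± 0.17, adjusted p = 0.00662; -0.05 ± 0.08 GC-adjusted, adjusted p = 0.721). Sema3b was lower in both fits, while the higher call of Sema3a was absent after the adjustment. The growth factor Fgf2 was at 1.11 and 0.79 (adjusted p = 0.00837 and 0.0659), and the angiogenic factor Vegfa at 0.13 and 0.43 (adjusted p = 0.394 and 0.0248). With 1 library left out, the GC-adjusted call was lost for Vegfa without nanotopography replicates 1 and 3 or control replicates 1 and 2 (0.38 and adjusted p = 0.107 without nanotopography replicate 1).

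NF-κB and inflammatory genes were called in both directions before the adjustment and almost not at all after it. Of 17 tested genes from a list of 31, 4 were called higher (Rel, Birc3, Vcam1 and Ptgs2) and 6 lower, with a median log2 fold change of -0.39. In the GC-adjusted fit, 1 was called higher (Nfkb2) and none lower, with a median of -0.02. Rela, the p65 subunit, had 24.2, 25 and 29 CPM in the nanotopography libraries, against 52, 61.9 and 57.9 CPM in the control libraries (log2 fold change -1.13 ± 0.13, adjusted p = 2.42e-05; -0.31 ± 0.11 GC-adjusted, adjusted p = 0.0532). Vcam1, an adhesion molecule induced by NF-κB, had 81.7, 66.8 and 76.2 CPM in the nanotopography libraries, against 54.7, 53.8 and 49.2 CPM in the control libraries (log2 fold change 0.51 ± 0.12, adjusted p = 0.00342; 0.00 ± 0.11 GC-adjusted, adjusted p = 0.994). Tnfaip2, a tumour necrosis factor response gene, was at -0.67 and -0.03. Groups lay apart in all 3 genes, and none of the 3 passed GC-adjusted. Nfkb2, which encodes p100, was the one member called after the adjustment, and in the other direction (-0.44, adjusted p = 0.0309; 0.36 GC-adjusted, adjusted p = 0.0266). When 1 library was omitted, the unadjusted call was lost for Nfkb2 without nanotopography replicates 1 and 3 or control replicates 1 and 3 (-0.29 and adjusted p = 0.161 without nanotopography replicate 1). A GC-adjusted call was lost for Nfkb2 without nanotopography replicates 1, 2 and 3 or control replicates 2 and 3 (0.26 and adjusted p = 0.149 without control replicate 2). Gains of a GC-adjusted call were seen for Rela without nanotopography replicate 1 or control replicate 3 (-0.40 and adjusted p = 0.043 without nanotopography replicate 1).

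Of adhesion genes, through which cells sense a surface, more were called lower than higher before the adjustment. Of 32 tested genes from a list of 34, 5 were called higher (Itga1, Itga4, Itgav, Itgb1 and Lims1) and 14 lower, with a median log2 fold change of -0.16. With the trends removed, 1 was called higher (Itga4) and 4 lower (Vcl, Zyx, Bcar1 and Actn4), with a median of -0.02. Bcar1, the focal adhesion adaptor p130Cas, had 28.7, 33.6 and 36.4 CPM in the nanotopography libraries, against 69.7, 67.4 and 75 CPM in the control libraries (log2 fold change -1.10 ± 0.13, adjusted p = 2.82e-05; -0.39 ± 0.10 GC-adjusted, adjusted p = 0.00959). Zyx, zyxin of focal adhesions and stress fibres, had 37.8, 49.4 and 41.3 CPM in the nanotopography libraries, against 71.4, 83.4 and 94.4 CPM in the control libraries (log2 fold change -0.95 ± 0.14, adjusted p = 1.50e-04; -0.34 ± 0.10 GC-adjusted, adjusted p = 0.0237). Each of them was lower in each nanotopography library and in both fits. Itgb5, an integrin subunit that binds vitronectin, was at -0.82 and -0.17, the second not called (adjusted p = 0.116). Itga4, an integrin of leukocytes and the one member called higher in both fits, passed the low-count filter only through the nanotopography libraries and is described with the macrophage genes. In fits without 1 library, the higher count was 1 without nanotopography replicate 1 and 2 without nanotopography replicate 3 or control replicates 2 and 3, and the GC-adjusted lower count was 1 without nanotopography replicates 1 and 3 or control replicate 2. The GC-adjusted call was lost for Zyx without nanotopography replicates 1 and 3 or control replicates 2 and 3 (-0.29 and adjusted p = 0.108 without nanotopography replicate 3).

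For actin, contractile and YAP target genes the lower calls were mostly gone after the adjustment. Of 34 tested genes from a list of 35, 1 was called higher (Tead1) and 17 lower, with a median log2 fold change of -0.42. GC-adjusted, 5 were called higher (Mylk, Myh10, Tpm2, Ajuba and Tead1) and 4 lower (Actb, Tagln, Cnn2 and Cfl1), with a median of -0.06. Cnn2, the actin-binding calponin 2, had 359, 449 and 411 CPM in the nanotopography libraries, against 647, 707 and 629 CPM in the control libraries (log2 fold change -0.70 ± 0.12, adjusted p = 3.66e-04; -0.30 ± 0.08 GC-adjusted, adjusted p = 0.0128). Amotl2, an angiomotin that binds YAP, was at -0.67 and -0.08, and Tead3, a DNA-binding partner of YAP, at -0.83 and -0.06. Only Cnn2 of these 3 was called GC-adjusted. Among fits that omitted 1 library, the GC-adjusted higher count was 2 without control replicate 2 and 3 without nanotopography replicate 1, and the GC-adjusted lower count was 0 without nanotopography replicate 1 or control replicate 2 and 2 without control replicate 3. The GC-adjusted call was lost for Cnn2 without nanotopography replicate 1 or control replicate 2 (-0.28 and adjusted p = 0.0597 without control replicate 2).

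Immediate early genes, which answer serum, stretch and stress within minutes, were lower in part. Of 28 tested genes from a list of 29, 1 was called higher (Klf6) and 10 lower, with a median log2 fold change of -0.34. After the adjustment, 4 were called higher (Fosl1, Dusp4, Dusp6 and Klf4) and 5 lower (Junb, Jund, Ier2, Nr4a1 and Klf10), with a median of 0.07. Jund, an AP-1 subunit, had 7.5, 8 and 6.53 CPM in the nanotopography libraries, against 25.4, 35.4 and 33.7 CPM in the control libraries (log2 fold change -2.09 ± 0.17, adjusted p = 1.43e-06; -0.87 ± 0.14 GC-adjusted, adjusted p = 4.83e-04). Junb, another AP-1 subunit, had 7.79, 11.3 and 13.4 CPM in the nanotopography libraries, against 26.3, 36.3 and 39.8 CPM in the control libraries (log2 fold change -1.65 ± 0.18, adjusted p = 1.76e-05; -0.67 ± 0.13 GC-adjusted, adjusted p = 0.00147). Both were lower in each nanotopography library and in both fits, at 67.1% and 62.6% GC. Ier2 was at -1.53 and -0.65. On leaving out 1 library, the GC-adjusted higher count was 2 without nanotopography replicates 1 and 3 or control replicate 2, and the GC-adjusted lower count was 2 without control replicate 2 and 3 without nanotopography replicates 1 and 2. A GC-adjusted call was lost for Ier2 without nanotopography replicates 1 and 2 or control replicate 2 (-0.58 and adjusted p = 0.105 without nanotopography replicate 1).

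Hypoxia and glycolysis genes were called lower far more often than higher in both fits. Of 34 tested genes from a list of 37, 1 was called higher (Ero1l) and 19 lower, with a median log2 fold change of -0.41. In the GC-adjusted fit, 1 was called higher (Vegfa) and 14 lower, with a median of -0.26. Pfkl, a phosphofructokinase, had 177, 299 and 266 CPM in the nanotopography libraries, against 507, 625 and 605 CPM in the control libraries (log2 fold change -1.23 ± 0.17, adjusted p = 8.22e-05; -0.62 ± 0.10 GC-adjusted, adjusted p = 4.77e-04). Tpi1, triose-phosphate isomerase, had 211, 336 and 299 CPM in the nanotopography libraries, against 511, 618 and 591 CPM in the control libraries (log2 fold change -1.02 ± 0.17, adjusted p = 2.95e-04; -0.57 ± 0.11 GC-adjusted, adjusted p = 0.00129). Pfkm, the muscle-type phosphofructokinase, was at -0.79 and -0.40. All 3 were called in both fits with no overlap. With 1 library left out, the GC-adjusted lower count was 9 without control replicate 2. Losses of a GC-adjusted call were seen for Pfkm without control replicate 2 (-0.33, adjusted p = 0.0583).

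Stress response genes of the ATF4, NRF2 and metal lists were lower on nanotopography in part. In the ATF4 and integrated stress response list, 1 of 27 tested genes was called higher and 17 lower (median -0.54), and GC-adjusted 3 higher and 8 lower (median -0.15). Shmt2, the mitochondrial serine hydroxymethyltransferase, had 27, 34.7 and 38.3 CPM in the nanotopography libraries, against 75.8, 86.7 and 81.2 CPM in the control libraries (log2 fold change -1.29 ± 0.15, adjusted p = 2.24e-05; -0.59 ± 0.09 GC-adjusted, adjusted p = 3.40e-04). Slc3a2, the heavy chain of amino acid transporters, had 147, 200 and 195 CPM in the nanotopography libraries, against 337, 374 and 306 CPM in the control libraries (log2 fold change -0.91 ± 0.13, adjusted p = 1.30e-04; -0.57 ± 0.10 GC-adjusted, adjusted p = 5.84e-04). Each of them was lower in each nanotopography library. Atf5 was at -1.05 and -0.20, the second not called. In the NRF2 and antioxidant list, 2 of 24 were called higher and 9 lower (median -0.18), and GC-adjusted 2 and 4 (median -0.10). Taldo1 and Tkt of the pentose phosphate pathway were at -1.10 and -0.93, and GC-adjusted at -0.76 and -0.53, called in both fits. Gpx1, a glutathione peroxidase, was at -1.19 and -0.65, also called in both. Hmox1, heme oxygenase, had 216, 260 and 233 CPM in the nanotopography libraries, against 345, 350 and 325 CPM in the control libraries (log2 fold change -0.52 ± 0.14, adjusted p = 0.00685; -0.21 ± 0.10 GC-adjusted, adjusted p = 0.146), so it passed only without the adjustment.

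Among 14 tested genes of metal and iron handling, none was called higher in either fit, 7 were called lower (median -0.30) and 5 lower GC-adjusted (median -0.30). Mt2, a metallothionein that binds zinc, had 15.6, 18.7 and 19.7 CPM in the nanotopography libraries, against 46.8, 57.5 and 71 CPM in the control libraries (log2 fold change -1.69 ± 0.19, adjusted p = 2.14e-05; -1.17 ± 0.15 GC-adjusted, adjusted p = 4.56e-05). Blvrb, a biliverdin reductase, had 4.81, 8 and 7.74 CPM in the nanotopography libraries, against 17.3, 22.3 and 21.8 CPM in the control libraries (log2 fold change -1.57 ± 0.18, adjusted p = 2.35e-05; -1.04 ± 0.14 GC-adjusted, adjusted p = 9.11e-05). Ftl1, ferritin light chain, had 94.1, 127 and 136 CPM in the nanotopography libraries, against 289, 297 and 245 CPM in the control libraries (log2 fold change -1.22 ± 0.19, adjusted p = 2.10e-04; -0.59 ± 0.14 GC-adjusted, adjusted p = 0.00738). Each was lower in all 3 nanotopography libraries.

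Nuclear genes for the respiratory chain were often called lower, and 5 mitochondrially encoded transcripts were called higher only before the adjustment. Of 78 tested genes from a list of 79, 4 were called higher (Atp5j, Ndufa5, Cox7b and Atp5k) and 39 lower, with a median log2 fold change of -0.48. After the adjustment, 2 were called higher (Ndufa5 and Atp5k) and 31 lower, with a median of -0.25. Ndufs7, a complex I subunit of the nuclear genome, had 11.6, 20.3 and 21.3 CPM in the nanotopography libraries, against 43.9, 63.2 and 56.7 CPM in the control libraries (log2 fold change -1.62 ± 0.20, adjusted p = 3.11e-05; -1.06 ± 0.13 GC-adjusted, adjusted p = 3.65e-05). Ndufa12, another complex I subunit, had 5.66, 5.84 and 8.35 CPM in the nanotopography libraries, against 18, 23.1 and 21 CPM in the control libraries (log2 fold change -1.65 ± 0.19, adjusted p = 2.30e-05; -1.42 ± 0.19 GC-adjusted, adjusted p = 5.62e-05). Both, like Uqcrq, were lower in each nanotopography library. Atp5k and Ndufa5 were the members called higher in both fits, with 1.09 and 0.89 unadjusted and 1.70 and 1.06 GC-adjusted. The 15 tested genes of the mitochondrial genome (of 37) have a median of 37.1% GC. Of them 5 were called higher and 0 lower (median 0.39), and GC-adjusted 0 in either direction (median -0.18). mt-Rnr2, the large ribosomal RNA, had 150318, 73554 and 88480 CPM in the nanotopography libraries, against 60538, 59175 and 53456 CPM in the control libraries (log2 fold change 0.85 ± 0.21, adjusted p = 0.00476; -0.04 ± 0.11 GC-adjusted, adjusted p = 0.849). When 1 library was omitted, for the nuclear-encoded respiratory chain subunits list the higher count was 1 without control replicates 1 and 2 and 2 without nanotopography replicates 1 and 3, and the GC-adjusted lower count was 16 without nanotopography replicate 1 and 20 without control replicate 2. For the mitochondrially encoded transcripts list the higher count was 2 without nanotopography replicate 1 or control replicates 1 and 2 and 8 without control replicate 3. The unadjusted call was lost for Atp5k without nanotopography replicate 3 or control replicates 1 and 2 (1.00 and adjusted p = 0.0762 without control replicate 2). Mt-Rnr2 was at 0.49 without nanotopography replicate 1 (adjusted p = 0.035).

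Cytosolic ribosomal protein and proteasome genes were more often called lower than higher in both fits, with a wide spread among members. Of 80 tested genes from a list of 88, 4 were called higher (Rps24, Rps27l, Rpl22l1 and Rpl30) and 36 lower, with a median log2 fold change of -0.40. In the GC-adjusted fit, 4 were called higher, among them Rpl22, Rpl22l1 and Rpl23, and 29 lower, with a median of -0.19. GC-adjusted values ran from -2.60 for Rps16 to 0.69 for Rpl22l1, the paralog of Rpl22. Rps16 had 0.991, 1.02 and 1.06 CPM in the nanotopography libraries, against 4.86, 7.11 and 11.4 CPM in the control libraries (log2 fold change -2.88 ± 0.39, adjusted p = 6.57e-05; -2.60 ± 0.37 GC-adjusted, adjusted p = 1.36e-04). Rps7 had 11.9, 17.8 and 16.2 CPM in the nanotopography libraries, against 50.1, 58.4 and 54.6 CPM in the control libraries (log2 fold change -1.82 ± 0.15, adjusted p = 1.29e-06; -1.71 ± 0.13 GC-adjusted, adjusted p = 5.37e-08). Both were lower in each nanotopography library, with Rps7 the more abundant. Rps16 was near 1 CPM on nanotopography, and near-identical copies leave the values of both genes uncertain. In the proteasome list, of 47 tested genes from a list of 49, 2 were called higher (Psmc6 and Psme4) and 19 lower, with a median log2 fold change of -0.31. In the GC-adjusted fit, 2 were called higher (Psmc5 and Psmc1) and 15 lower, with a median of -0.31. Psmb6, a catalytic subunit, had 39.1, 71.6 and 58.9 CPM in the nanotopography libraries, against 104, 140 and 127 CPM in the control libraries (log2 fold change -1.13 ± 0.18, adjusted p = 2.91e-04; -0.92 ± 0.14 GC-adjusted, adjusted p = 1.91e-04). Psmb2 was at -1.0 and -0.88, and Psmd3 of the regulatory particle at -0.93 and -0.37. In fits without 1 library, for the cytosolic ribosomal protein genes list the higher count was 1 without nanotopography replicate 1 and 2 without control replicates 1 and 2, and the GC-adjusted higher count was 1 without nanotopography replicate 1 or control replicate 2 and 2 without nanotopography replicate 3, and the GC-adjusted lower count was 19 without nanotopography replicate 1. For the proteasome genes list the lower count was 11 without nanotopography replicate 1 and 12 without control replicate 3, and the GC-adjusted lower count was 5 without nanotopography replicate 1, 8 without nanotopography replicate 3 and 9 without control replicate 2. GC-adjusted calls were lost for Psmd3 without nanotopography replicate 1 or control replicate 2 (-0.28 and adjusted p = 0.111 without nanotopography replicate 1) and Rpl22l1 without nanotopography replicate 1 or control replicate 2 (0.51 and adjusted p = 0.0968 without nanotopography replicate 1).

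Core and linker histone genes were lower or not called, with none higher in either fit. Of 42 tested genes from a list of 64, none were called higher and 13 lower, with a median log2 fold change of -1.01. With the trends removed, none were called higher and 8 lower, with a median of -0.36. Hist1h4c had 0.991, 0.635 and 1.52 CPM in the nanotopography libraries, against 3.56, 6.97 and 6.61 CPM in the control libraries (log2 fold change -2.43 ± 0.41, adjusted p = 4.00e-04; -2.40 ± 0.40 GC-adjusted, adjusted p = 5.84e-04). Hist2h2ac had 2.97, 5.84 and 4.86 CPM in the nanotopography libraries, against 20.2, 44.3 and 49.8 CPM in the control libraries (log2 fold change -3.04 ± 0.36, adjusted p = 2.78e-05; -2.10 ± 0.28 GC-adjusted, adjusted p = 6.31e-05). Among linker histones, of 6 tested genes from a list of 10, none were called higher and 6 lower, with a median log2 fold change of -1.33. With the trends removed, none were called higher and 3 lower (Hist1h1c, Hist1h1d and Hist1h1e), with a median of -0.73. Hist1h1c had 14, 26.3 and 22.6 CPM in the nanotopography libraries, against 57.6, 86.7 and 97 CPM in the control libraries (log2 fold change -1.93 ± 0.22, adjusted p = 2.14e-05; -1.40 ± 0.15 GC-adjusted, adjusted p = 5.29e-06). Hist1h1d, at 39.8% GC, was at -1.32 and -1.88, and Hist1h1e at -1.34 and -1.11. Nanotopography libraries lay below control libraries in each of these genes. Among replacement histones, of 8 tested genes from a list of 9, 1 was called higher (Cenpa) and 3 lower (H2afx, H2afz and H2afj), with a median log2 fold change of -0.20. The same list had after the adjustment none higher and 2 lower (H2afz and H2afj), with a median of -0.13. The higher call of Cenpa was lost without nanotopography replicates 2 and 3 or control replicates 1 and 2, and without control replicate 3 a GC-adjusted higher call was gained in this list. The share of Gm26917 and Gm42418 was lower in the same libraries. Beyond the fit without them, its part in these values was not tested. Among fits that omitted 1 library, for the replication-dependent core histone genes list the lower count was 8 without nanotopography replicate 1, and the GC-adjusted lower count was 5 without nanotopography replicate 1 or control replicate 3.

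Writers and erasers of histone methylation were called in both directions, as were all tested genes (18.6% higher and 23.3% lower before the adjustment). Of 45 tested genes from a list of 48, 13 were called higher and 8 lower, with a median log2 fold change of 0.00. GC-adjusted, 7 were called higher and 6 lower, with a median of 0.13. Kmt5a, which methylates histone H4 lysine 20, had 121, 97.5 and 114 CPM in the nanotopography libraries, against 85.6, 85.2 and 91.1 CPM in the control libraries (log2 fold change 0.34 ± 0.12, adjusted p = 0.0321; 0.73 ± 0.14 GC-adjusted, adjusted p = 0.00179). Ezh2, the H3 lysine 27 methyltransferase of Polycomb, had 102, 83.6 and 80.6 CPM in the nanotopography libraries, against 68.2, 73.1 and 71.6 CPM in the control libraries (log2 fold change 0.32 ± 0.11, adjusted p = 0.0325; 0.03 ± 0.09 GC-adjusted, adjusted p = 0.843). Kmt5a was higher in both fits and Ezh2 only unadjusted, with no overlap in either. Setd7 was at 0.34 and 0.23, and Kmt2c at 0.56 and 0.28. Ehmt2, an H3 lysine 9 methyltransferase, was at -0.86 and 0.00, and the arginine methyltransferase Prmt2 at -0.86 and -0.49. Among demethylases, of 25 tested genes from a list of 26, 6 were called higher and 8 lower, with a median log2 fold change of 0.06. GC-adjusted, 2 were called higher (Kdm6b and Phf2) and 3 lower (Kdm2b, Kdm4b and Hr), with a median of -0.08. Hr, the hairless H3 lysine 9 demethylase, had 8.78, 8.89 and 12.6 CPM in the nanotopography libraries, against 28.2, 25.1 and 30.7 CPM in the control libraries (log2 fold change -1.48 ± 0.16, adjusted p = 1.76e-05; -0.63 ± 0.14 GC-adjusted, adjusted p = 0.00514). Kdm4b had 43.6, 65.1 and 63.4 CPM in the nanotopography libraries, against 127, 159 and 134 CPM in the control libraries (log2 fold change -1.29 ± 0.17, adjusted p = 4.85e-05; -0.52 ± 0.10 GC-adjusted, adjusted p = 0.0019). Each of them was lower in each nanotopography library and in both fits, while Kdm7a was at 0.68 and 0.11. On leaving out 1 library, for the histone methyltransferases list the higher count was 7 without nanotopography replicate 1 and 8 without control replicate 2, and the lower count was 4 without nanotopography replicate 1 and 5 without control replicate 2, and the GC-adjusted higher count was 3 without nanotopography replicate 1 or control replicate 2 and 4 without nanotopography replicate 3 or control replicate 1, and the GC-adjusted lower count was 0 without nanotopography replicate 1 or control replicate 2, 1 without nanotopography replicate 3 and 2 without control replicate 3. For the histone demethylases list the higher count was 3 without nanotopography replicate 1 or control replicates 2 and 3, and the lower count was 3 without nanotopography replicate 1, 4 without control replicate 2 and 5 without control replicate 3. An unadjusted call was lost for Ezh2 without nanotopography replicate 1 or control replicates 1, 2 and 3 (0.21 and adjusted p = 0.186 without nanotopography replicate 1), Setd7 without nanotopography replicate 1 or control replicate 2 (0.28 and adjusted p = 0.0736 without control replicate 2) and Kmt5a without nanotopography replicates 1 and 3 or control replicates 1, 2 and 3 (0.27 and adjusted p = 0.133 without nanotopography replicate 1). Losses of a GC-adjusted call were seen for Prmt2 without nanotopography replicates 1 and 2 or control replicates 1, 2 and 3 (-0.40 and adjusted p = 0.122 without nanotopography replicate 2) and Kmt2c without nanotopography replicates 1 and 3 or control replicates 1 and 2 (0.23 and adjusted p = 0.115 without control replicate 2). The GC-adjusted call was gained for Setd7 without nanotopography replicate 2 (0.26, adjusted p = 0.0483).

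Cell cycle genes were called in both directions, before the adjustment at shares near those of all tested genes (18.6% higher and 23.3% lower). Of 44 tested genes from a list of 45, 10 were called higher and 8 lower, with a median log2 fold change of 0.03. After the adjustment, 6 were called higher and 2 lower (Ccnd3 and Cdkn1a), with a median of 0.03. Mki67, the proliferation marker Ki-67, had 470, 317 and 373 CPM in the nanotopography libraries, against 230, 173 and 200 CPM in the control libraries (log2 fold change 0.94 ± 0.18, adjusted p = 8.62e-04; 0.80 ± 0.14 GC-adjusted, adjusted p = 0.00101). Cenpf, a kinetochore protein, had 128, 80.5 and 86.1 CPM in the nanotopography libraries, against 52, 41 and 54.3 CPM in the control libraries (log2 fold change 1.00 ± 0.18, adjusted p = 6.70e-04; 0.58 ± 0.12 GC-adjusted, adjusted p = 0.00359). Cdkn1a, the cyclin-dependent kinase inhibitor p21, had 161, 173 and 155 CPM in the nanotopography libraries, against 252, 301 and 262 CPM in the control libraries (log2 fold change -0.74 ± 0.12, adjusted p = 3.01e-04; -0.42 ± 0.09 GC-adjusted, adjusted p = 0.00342). Mki67 and Cenpf were higher and Cdkn1a lower in each nanotopography library and in both fits. Other mitotic genes went the other way. Plk1 and Cdc20 were called lower before the adjustment. Both calls were lost without nanotopography replicate 1 (-0.50 and -0.54, adjusted p = 0.169 and 0.101). Mki67 and Cenpf have long coding sequences, and calls by coding length are given below. With 1 library left out, the higher count was 5 without nanotopography replicate 1, and the lower count was 5 without nanotopography replicate 1 or control replicate 2, and the GC-adjusted higher count was 2 without nanotopography replicate 1 or control replicate 2 and 3 without nanotopography replicate 3 or control replicate 3.

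Transcripts of the macrophage lineage, that of the cells in the insert, had more counts in the nanotopography libraries, while osteoclast markers did not go one way. Protein-coding genes that were called, averaged at least 1 CPM and did not overlap were ranked by log2 fold change, and the 10 highest included Clec5a, Atp6v0d2, Lcp1 and Itga4. All 10 passed the low-count filter only through the nanotopography libraries. Being tested at all depended on being higher there, so these genes are given by their counts, without a fitted change or its test. Clec5a, a lectin receptor of myeloid cells, had 19, 38 and 57 counts in the nanotopography libraries, against 0, 3 and 2 counts in the control libraries. Atp6v0d2, a proton pump subunit that osteoclasts need to fuse, had 13, 31 and 29 counts in the nanotopography libraries, against 0, 5 and 2 counts in the control libraries. Lcp1, the actin bundler of leukocytes, had 31, 74 and 59 counts in the nanotopography libraries, against 0, 10 and 15 counts in the control libraries. Itga4, an integrin chain of leukocytes, had 30, 30 and 48 counts in the nanotopography libraries, against 0, 4 and 4 counts in the control libraries. In each of these the nanotopography libraries had more counts than any control library, and control replicate 1, the deepest library, had none. The other 6 were Spink5, Pcdh7, Lpl, Dock10, Epb41 and Shtn1, with 57, 86, 338, 78, 95 and 54 counts in the 3 nanotopography libraries together, against 3, 7, 34, 10, 14 and 9 in the 3 control libraries together, in that order. Control replicate 1 had 0 counts of these except Lpl, with 5. Of all tested genes, 306 passed the filter only through the nanotopography libraries, and 111 of them were called higher. Another 154 passed only through the control libraries, and 21 of them were called lower. Over all tested genes, 18.6% were called higher and 23.3% lower. The filter itself favours such calls, so nothing is read from these counts.

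The whole marker lists were counted without a filter, since a marker that passes only through the group where it is high had to differ. The counts of the 24 macrophage and monocyte markers summed to 207, 464 and 458 in the nanotopography libraries, against 85, 107 and 143 in the control libraries. The number of these markers at 0 was 5, 2 and 2 in the nanotopography libraries, against 17, 12 and 8 in the control libraries. The sums of the groups did not overlap. In isolated cells, without osteoclasts, the same markers summed to 64, 54 and 62 on nanotopography and 102, 118 and 65 on control titanium. Ptprc, the pan-leukocyte antigen CD45, had 9, 20 and 15 counts in the nanotopography libraries, against 0, 0 and 2 counts in the control libraries, a ratio per count total of 23.8 (95% counting interval 6.2 to 202). Dock2, a Rac activator of blood cells, had 18, 39 and 38 counts in the nanotopography libraries, against 0, 9 and 8 counts in the control libraries. Csf1r, the receptor of the macrophage growth factor CSF-1, had 18, 56 and 70 counts in the nanotopography libraries, against 10, 19 and 16 counts in the control libraries (log2 fold change 1.75 ± 0.44, adjusted p = 0.00541; 2.15 ± 0.40 GC-adjusted, adjusted p = 0.00118), and its groups overlapped in CPM. Aif1 was at 0 in all 12 libraries and Adgre1 had 2 counts in the 6 co-culture libraries. Only 7 of the 24 passed the low-count filter, and Plek, the leukocyte protein pleckstrin, was among them (1.04 and 0.70). When 1 library was omitted, the GC-adjusted call was lost for Plek without nanotopography replicates 2 and 3 or control replicates 1 and 2 (0.58 and adjusted p = 0.148 without nanotopography replicate 3).

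The counts of the 16 osteoclast markers summed to 3932, 5126 and 4119 in the nanotopography libraries, against 5750, 4776 and 4669 in the control libraries, and these sums overlapped. The number at 0 was 3, 3 and 3 in the nanotopography libraries, against 8, 4 and 4 in the control libraries. Most of the sum came from Ctsk, Itgb3 and Myo1d, of which the 6 isolated libraries together held 6859, 2063 and 11107 counts. Ctsk, cathepsin K, had 1176, 1518 and 1245 counts in the nanotopography libraries, against 1568, 1285 and 1091 counts in the control libraries. Tnfrsf11a, the receptor RANK, had 6, 17 and 15 counts in the nanotopography libraries, against 0, 0 and 1 counts in the control libraries, a ratio of 41.1 (interval 6.94 to 1664). Dcstamp, needed for osteoclast fusion, had 4, 10 and 12 counts in the nanotopography libraries, against 0, 2 and 4 counts in the control libraries, and Acp5, tartrate-resistant acid phosphatase, 3, 22 and 8 counts in the nanotopography libraries, against 1, 4 and 6 counts in the control libraries. Calcr and Siglec15 were at 0 in all 6 co-culture libraries. Of the 8 tested markers, the proton pump subunit gene Tcirg1 and the chloride exchanger gene Clcn7 were called lower before the adjustment and not after it, and Clec5a and Atp6v0d2 were called higher but had passed the filter only through the nanotopography libraries. Ratios per count total were 0.824 for Mmp9 (interval 0.713 to 0.951), 0.917 for Itgb3 (0.864 to 0.973) and 0.869 for Myo1d (0.84 to 0.9). That of Ctsk went the other way, at 1.08 (1.03 to 1.13). In the 6 isolated libraries together, Ptprc, Dock2, Clec5a, Atp6v0d2, Itga4, Dcstamp and Tnfrsf11a had 0 counts and Lcp1 had 1. Other macrophage markers had counts there, among them Plek 189, Csf1r 89, Lyz2 48, Cd14 43, Cd68 41 and Fcer1g 25, so the list is not specific to the cells in the insert. The intervals of the ratios cover counting error alone. They come from counts summed over the 3 libraries of a group, so the spread between replicates is left out. An interval that leaves out 1 is therefore no test of the surface. No molecular identifiers mark separate molecules. The part these transcripts have in the other differences was not tested. In fits without 1 library, the unadjusted call was lost for Tcirg1 without nanotopography replicates 1 and 2 or control replicates 2 and 3 (-0.40 and adjusted p = 0.157 without nanotopography replicate 1).

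**Figure D5:**
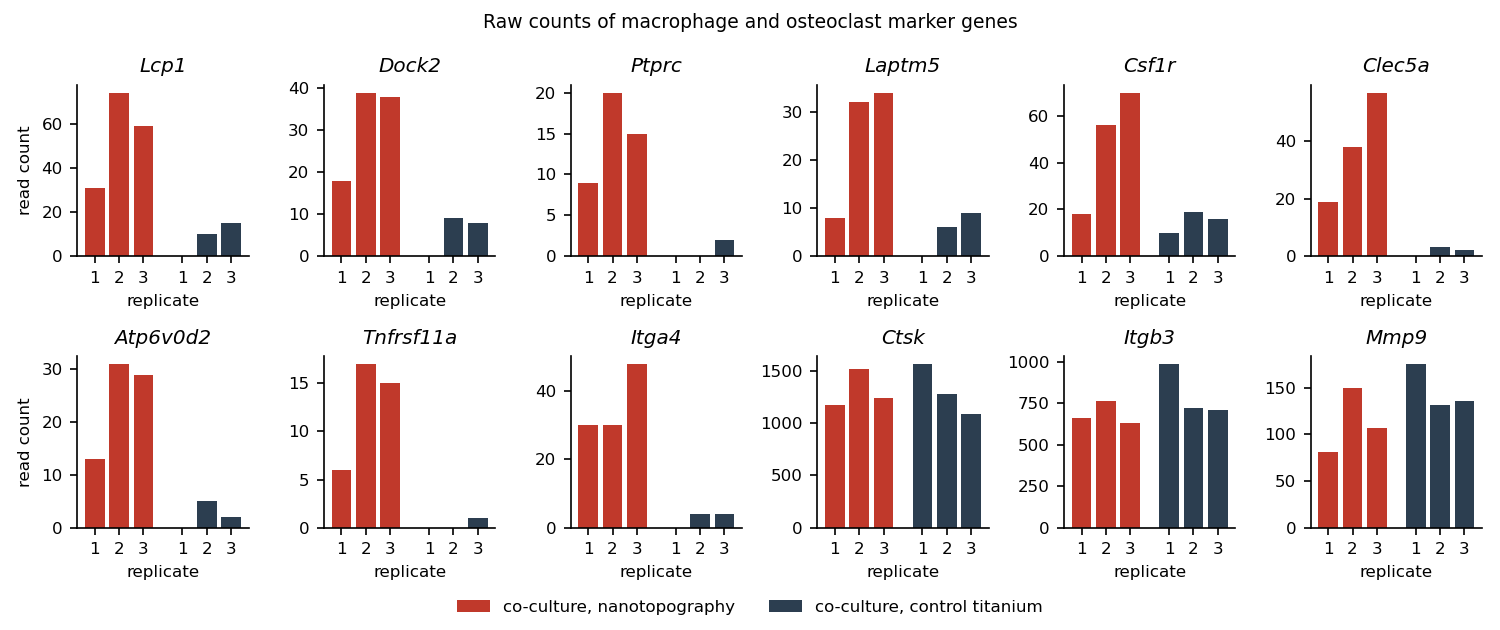
Raw counts (y, from 0) of 12 macrophage and osteoclast genes in the 3 nanotopography (left bars) and 3 control (right bars) co-culture libraries. From Lcp1 to Itga4 each nanotopography library exceeds each control library except in Laptm5 and Csf1r, whose lowest nanotopography counts, 8 and 18, lie below the highest control counts, 9 and 19. The raw counts of Ctsk, Itgb3 and Mmp9, which isolated osteoblasts also hold, overlap between the groups.

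The 10 lowest genes by the rule used for the highest were a mixed set. Mcrip2 was lowest, with 0, 0.254 and 0.152 CPM in the nanotopography libraries, against 1.4, 2.37 and 2.41 CPM in the control libraries (log2 fold change -3.70 ± 0.65, adjusted p = 4.80e-04; -2.82 ± 0.64 GC-adjusted, adjusted p = 0.00587). Sdsl, a serine dehydratase-like enzyme, had 0.283, 0.127 and 0.304 CPM in the nanotopography libraries, against 1.94, 2.51 and 2.41 CPM in the control libraries (log2 fold change -3.19 ± 0.48, adjusted p = 1.45e-04; -2.37 ± 0.52 GC-adjusted, adjusted p = 0.00458). Both are expressed at few CPM. Scand1 was at -2.53 and -1.29, and Tmem160 at -2.32 and -1.30. The remaining 6, Gm10073, Hist2h2ac, Rps16, Hist1h4c, Rplp2 and Oaz1, are described above. Among fits that omitted 1 library, the GC-adjusted calls were lost for Scand1 without nanotopography replicate 3 (-0.98, adjusted p = 0.0732) and Tmem160 without nanotopography replicates 1, 2 and 3 or control replicates 1 and 2 (-1.10 and adjusted p = 0.142 without nanotopography replicate 2).

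Gene classes outside the protein-coding set differed too. Of 571 tested entries annotated as TEC (transcribed regions to be experimentally tested), 274 were called higher and 2 lower, and GC-adjusted 76 and 1. Among 80 sense-intronic transcripts, 38 were higher and none lower, and GC-adjusted 12 and none. Long intergenic RNAs had 41 higher and 10 lower of 155, and 11 and 2 GC-adjusted. Protein-coding genes had 1974 higher and 2880 lower of 11049, and 775 and 1217 GC-adjusted. Of 50 snoRNAs, 1 was higher and 8 lower, and 1 and 7 GC-adjusted. The median GC content was 41.6% for TEC entries, 41.0% for sense-intronic transcripts and 49.1% for protein-coding genes. Whether the counting used strand is not given in the sources used here, so an intronic or antisense entry and its host gene cannot be told apart.

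Coding length was a further axis. In the class of protein-coding genes with the shortest coding sequence (111 to 597 bases), 4.62% were called higher and 14.6% lower GC-adjusted. In the class with the longest (3228 to 26397 bases), 13.7% were higher and 6.83% lower. The median log2 fold change GC-adjusted was -0.07 in the shortest and 0.06 in the longest class, at 49.6% and 48.5% median GC. The adjustment had removed each library's trend with the summed exon length, not with coding length. Ribosomal protein, respiratory chain and histone genes are mostly short and Mki67 and Cenpf long, and the part of coding length in their values was not tested.

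The surface difference was also measured in isolated cells. There 1295 of 13340 genes (9.71%) were called, 576 higher (4.32%) and 719 lower (5.39%). GC-adjusted, 704 (5.28%) were called, 443 higher (3.32%) and 261 lower (1.96%). A test of the difference between co-culture and isolated cells called 6383 genes (47.8%), 2994 with a more positive (22.4%) and 3389 with a more negative (25.4%) value in co-culture. GC-adjusted it called 2790 (20.9%), 1167 (8.75%) and 1623 (12.2%). The linker histone Hist1h1c shows the opposite sign, with -1.93 in co-culture and 1.23 in isolated cells (interaction -3.16 ± 0.29, adjusted p = 9.27e-06; GC-adjusted -2.40, adjusted p = 3.44e-07). Mmp13 was higher in co-culture and at -0.36 in isolated cells, not called there (interaction 1.35 ± 0.23, adjusted p = 3.19e-04; GC-adjusted 0.57, adjusted p = 0.0188). Col1a2 was lower in co-culture and at 0.02 in isolated cells (interaction -0.79 ± 0.15, adjusted p = 6.70e-04; GC-adjusted -1.23, adjusted p = 3.92e-05). Alpl was at -0.16 in isolated cells, with an interaction of -0.68 ± 0.19 (adjusted p = 0.00728; GC-adjusted 0.25, adjusted p = 0.142). Of the 135 genes named for this comparison, 112 had a called interaction, 72 of them in both fits, 65 with the same and 7 with the opposite sign. Many of these genes were chosen for their surface difference in co-culture, so nothing is read from these counts. The GC trends of the groups also had opposite signs, 1.62 in co-culture and -0.88 in isolated cells, a difference that was not tested.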

How the data were processed

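RNA sequencing libraries (SMARTer kit, TRIzol RNA, per the labels' protocols) of MC3T3-E1 osteoblasts were used as the authors deposited them, as whole-number read counts per gene, not normalised. Per the submitters' processing notes, which give no role or order, the tools were cutadapt, FastQC 0.63, STAR 2.4, HTSeq and DESeq2, with mm10 as the build. The annotation release and strand setting are not given in the sources used here. Of 54275 genes in the longest file, the 52654 present in all 12 files were used, since 11 of 12 files end within a line. Those genes hold no less than 99.924% of the counts in any library. All IDs matched GENCODE M21, 52092 with their version, from which GC content, length, gene type and sequences came. Depth was 6392210 to 9207831 counts in the 6 co-culture libraries. The replicates of a group differed by more than sampling noise and were kept as separate samples.

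Genes were filtered with filterByExpr and scaled by TMM, and 4 group means were fitted over all 12 libraries with edgeR 4.0.16 in R 4.3.3 (quasi-likelihood test). P-values were adjusted by Benjamini-Hochberg over 13340 genes. The biological coefficient of variation was 12.3%. For GC-adjusted values, each library's loess trend (span 0.3) of log CPM deviations with exon GC content and then log2 exon length was used as an offset. CPM is the count scaled by the TMM-adjusted library total, and a fold change is nanotopography over control. A gene's groups do not overlap when all its 3 CPM values in one group exceed all 3 in the other. The exact permutation test was two-sided. Samples were grouped by their labels.

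Genes and lists were chosen with earlier results of these data known. Named genes were the 10 highest and 10 lowest called protein-coding genes with a mean of at least 1 CPM and no overlap, the 10 highest and 10 lowest called in the same direction by both fits (at least 5 CPM, by the smaller change), the 5 and 5 with the largest GC-adjusted changes of opposite direction, a panel of 20 bone, chromatin and paracrine genes, the 3 smallest p-values of each list and the 6 genes for sequences. Alternatives were DESeq2 1.42.0, limma-voom (limma 3.58.1), other scalings and filters, the co-culture libraries alone, protein-coding genes alone, fits with a replicate block, and fits that omit 1 library. A further fit left out mitochondrial genes, Gm26917 and Gm42418. Figures and summaries used Python 3.11.15. The edgeR steps were tested on simulated data. The names of a few genes counted in the lists are not reported here.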

Additional observations from a re-analysis of the deposited data

Results flagged for a closer look

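The surface difference in co-culture was set against that in isolated cells by an interaction term (edgeR quasi-likelihood test, 3 libraries in each of 4 groups). It passed an adjusted p below 0.05 in 6383 of 13340 genes (47.8%), and GC-adjusted in 2790 (20.9%). Values below are interaction log2 fold changes, co-culture minus isolated, without GC adjustment. Their sizes depend on the adjustment. GC-adjusted, Scand1 was at -1.46, Mcrip2 at -3.59, Hist2h2ac at -2.90 and Rplp2 at -2.61. All genes listed passed in both fits with the same sign. Many were chosen for their surface difference in co-culture, which is part of the interaction, so their passing is no separate support. More positive in co-culture were 1700109H08Rik 2.46, Plek 1.96, Csf1r 1.90, Ccdc191 1.88, Prkg2 1.88, Pcdhgb5 1.85, Pcdhgb1 1.83, Mmp13 1.35, Adam17 1.10, Spp1 1.07, Armcx4 1.00, Mki67 0.93, Kmt2c 0.76 and Kmt5a 0.68. A further positive interaction was that of Setd7 0.48. More negative in co-culture were Mcrip2 -4.80, Hist2h2ac -4.19, Hist1h4c -3.68, Rps16 -3.42, Gm10073 -3.29, Hist1h2bb -3.18, Hist1h1c -3.16, Sdsl -3.15, Scand1 -3.10, Hist1h4d -3.07, Rplp0 -2.84, Rplp2 -2.81, Hist1h1e -2.70 and Oaz1 -2.54. Further negative interactions were Rps26 -2.46, Hist1h1d -2.43, Jund -2.34, Ndufa12 -2.30, Ifitm5 -2.29, Rps7 -2.25, Blvrb -2.08, Ndufs7 -2.04, Uqcrq -1.95, Mt2 -1.86, Sf3b5 -1.86, Junb -1.84, Hr -1.71 and Id3 -1.68. Also negative were Psmb6 -1.68, Pfkl -1.64, Kdm4b -1.64, Shmt2 -1.61, Taldo1 -1.50, Tkt -1.47, Serpinh1 -1.42, Sema3b -1.38, Bcar1 -1.37, Zyx -1.37, Psmb2 -1.37, Gpx1 -1.37, Psmd3 -1.34 and Tpi1 -1.34. The remaining negative interactions were Fzd8 -1.30, Prmt2 -1.22, Itgb5 -1.21, Dlx5 -1.21, Bmp1 -1.11, Pfkm -0.97, Cnn2 -0.93 and Col1a2 -0.79. Histone, ribosomal protein and Gm10073 values are uncertain because of near-identical copies. The listed leukocyte genes Plek and Csf1r had 189 and 89 counts in the 6 isolated libraries together, so their interactions rest on low counts. Leukocyte and osteoclast genes with 0 counts there, such as Clec5a and Itga4, are not listed. Their fitted interactions depend on the prior count and are no measure of size. The trend of log2 fold change with GC content was -0.88 between genes under 40% and genes of 60% GC or more in isolated cells, against 1.62 in co-culture, and this difference was not tested.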

How the results depend on the processing

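The number of genes called in co-culture, 5599, was 5344 with plain library totals, 5664 with RLE and 5694 with upper-quartile scaling, 5506 without and 5234 with a stricter filter on low counts, 5398 in DESeq2, 5595 in limma-voom and 5475 in the 6 co-culture libraries alone. Without mitochondrial genes, Gm26917 and Gm42418 it was 5645. It moved by over 1.5 times where GC content was held, and also without nanotopography replicate 1. Removing the GC and length trends left 2302 calls (974 higher, 1328 lower), and removing the GC trend alone 2294 (987 higher, 1307 lower). Genes of 47 to 51% GC held 531 calls (184 higher, 347 lower), but only 2852 genes were tested there, of which these are 18.6%. With the trends removed, calls in isolated cells numbered 704 and interactions 2790. Leaving out 1 library gave 3274 (without nanotopography replicate 1) to 5818 calls, with 1215 to 2528 higher (1451 without control replicate 2) and 2059 to 3290 lower. GC-adjusted calls ran from 935 (without nanotopography replicate 1) to 2379, with 1061 without control replicate 2 and 1322 without nanotopography replicate 3. With the trends removed, log2 fold changes of the other sign were seen for N4bp2l2 -0.40, Camk2d -0.35, Mkln1 -0.35, Zmym2 -0.34, Cep170 -0.34, Dact3 0.66, Ppp1r9b 0.58, Samd1 0.51, Kdm6b 0.50, Scx 0.47, Sp7 0.20, Bglap2 0.03, Sema3a -0.05, mt-Rnr2 -0.04, mt-Rnr1 -0.10, Ehmt2 0.00, Arhgap5 -0.29, Rnpc3 -0.29, Agap3 0.25 and Wnt10a 0.01. Under the other settings none of the 135 named genes called in either setting changed sign. For those genes the cause beyond the removed trend was not tested.

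Same-numbered libraries correlated at 0.30, 0.13 and 0.08 after group means were removed, control replicate 3 was nearest to nanotopography replicate 2, and the numbers were not taken to pair the samples. A replicate block gave 5453 calls, and 2027 with the trends removed (853 higher, 1174 lower). A group size of 3 limits an exact permutation test to p = 0.1, and low-count markers of macrophages are limited by counting error.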
